A study of Mus musculus with 24 samples.

Results

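The genes described here are 9 that carry the light signal of the rod photoreceptor from its visual pigment to the phosphodiesterase and end that signal again: Gnat1, Gnb1, Gngt1, Sag, Grk1, Rgs9, Rgs9bp, Gnb5 and Rcvrn. They were taken by symbol from the table of nuclear read counts, and all 9 were among its 31346 genes and passed the expression filter. The data are bulk RNA sequencing of 24 whole retinas, 1 retina per mouse. Of these, 8 came from rd10 mice on chow with tamsulosin, metoprolol and bromocriptine (rd10 TMB), which block alpha-1 and beta-1 adrenergic receptors and activate dopamine receptors, 8 from rd10 mice on the same base chow without the drugs (rd10 vehicle), 4 from dark-reared rd10 mice on base chow (rd10 DR) and 4 from wild-type C57BL/6J mice on base chow (WT). All rd10 mice carry a mutant Pde6b, which encodes a catalytic subunit of the phosphodiesterase of rods, in every cell, and lose their rods. The rd10 TMB, rd10 vehicle and WT mice were kept in darkness to postnatal day 29 and then in cyclic light. The drug diet began on day 28. Sources give the age at collection as day 36 or 37 for these 3 groups and as day 30 or 28 for rd10 DR. Thus rd10 DR differed from each of them in age as well as in light. It differed from WT also in genotype and from rd10 TMB also in the drug diet, and these cannot be told apart. Females and males were equal in number in every group.

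In a rod, light-activated visual pigment makes transducin, a G protein of an alpha, a beta and a gamma subunit, exchange GDP for GTP. The alpha subunit then takes the inhibitory subunits off the phosphodiesterase, cyclic GMP falls, and the cation channels of the outer segment close. Shutoff needs a reaction at each step. A kinase phosphorylates the pigment and arrestin caps it, while a GTPase-activating complex makes transducin hydrolyse its GTP, and recoverin ties the kinase to calcium. In mice, loss of the kinase, of arrestin or of the GTPase-activating complex slows the recovery of rods from light.

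Nuclear counts were 56799680 to 86471014 per library, and levels are given as CPM, counts scaled to a common library size, after TMM, a correction for differing RNA composition. TMM took up a shift of all genes: without it the median log2 fold change over all genes was 0.218 for rd10 vehicle against WT, compared with 0.015 with it. The summed level of 6 rod marker genes (Nrl, Nr2e3, Pde6a, Pde6b, Pde6g and Cnga1) was 3391 to 6712 CPM in rd10 TMB, 1463 to 4310.3 CPM in rd10 vehicle, 8489 to 8924 CPM in the dark-reared retinas and 13046.5 to 15190.1 CPM in WT, so the labelled tissue holds its defining cells and their marker RNA moves with the genes described here. In whole tissue, fewer rods and less RNA per rod cannot be told apart. The titles of the rd10 samples carry prefixes of unstated meaning. The rd10 TMB retinas comprised 3 titled RD9 (retinas 1, 2 and 5) and 5 titled RD10, the rd10 vehicle retinas 3 titled RD9, 4 titled RD10 and 1 titled RD8, and all 4 rd10 DR retinas were titled RD10.

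Per kilobase of exon, the alpha and beta subunits of transducin led the set. Gnat1 (GRCm38 chromosome 9, 107674474 to 107679712, minus strand), the transducin alpha subunit of rods, had 5740.3 ± 295 CPM per kilobase in WT retinas (SD, n = 4). Gnb1 (chromosome 4, 155491361 to 155559269, plus strand), the beta subunit of transducin and of G proteins of many other cells, had 1630.1 ± 117 CPM per kilobase, and Rcvrn (chromosome 11, 67695326 to 67703333, plus strand), recoverin, had 1153 ± 100.4 CPM per kilobase. Sag (chromosome 1, 87803680 to 87845158, plus strand), the rod arrestin, followed with 774 ± 32.7 CPM per kilobase. Gngt1 (chromosome 6, 3993792 to 3997436, plus strand), the rod gamma subunit, had 512 ± 94.6 CPM per kilobase. The pigment kinase Grk1 (chromosome 8, 13405081 to 13421951, plus strand) had 314 ± 35.7 CPM per kilobase. The genes of the GTPase-activating complex stood lowest. Gnb5 (chromosome 9, 75306288 to 75345876, plus strand), the beta subunit that stabilises R7-type RGS proteins, had 279 ± 14.9, Rgs9bp (chromosome 7, 35578993 to 35585582, minus strand), the membrane anchor, 194 ± 26.1, and Rgs9 (chromosome 11, 109225355 to 109298129, minus strand), the GTPase-activating protein itself, 179.5 ± 16.2 CPM per kilobase in WT. These lengths are unions of all annotated exons, so levels per kilobase depend on the annotation. Exons of Gnb5 overlap the antisense gene Gm19531 over 248 bases, and the libraries do not mark the strand. As raw counts the 9 genes together took 1.59% ± 0.346 of all nuclear counts in rd10 TMB (SD, n = 8), 0.991% ± 0.302 in rd10 vehicle (n = 8), 2.47% ± 0.142 in rd10 DR (n = 4) and 3.65% ± 0.163 in WT retinas (n = 4).

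The 250 bases before the start are shown for Sag and Gnb5, which fell least in the results below, and for Gnb1, a transducin subunit that fell more. Sequences are from RefSeq (GRCm38.p6), on the strand of the gene, 5′ to 3′, and capitals mark GGATTA or its complement TAATCC, the core that the homeobox factor CRX of photoreceptors binds.
Sag (chr1:87803430-87803679, plus strand): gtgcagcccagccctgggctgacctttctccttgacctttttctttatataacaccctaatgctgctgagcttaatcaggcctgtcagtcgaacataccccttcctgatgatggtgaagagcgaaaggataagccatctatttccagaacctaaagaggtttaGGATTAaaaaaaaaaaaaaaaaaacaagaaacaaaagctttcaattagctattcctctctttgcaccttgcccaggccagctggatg
Gnb5 (chr9:75306038-75306287, plus strand): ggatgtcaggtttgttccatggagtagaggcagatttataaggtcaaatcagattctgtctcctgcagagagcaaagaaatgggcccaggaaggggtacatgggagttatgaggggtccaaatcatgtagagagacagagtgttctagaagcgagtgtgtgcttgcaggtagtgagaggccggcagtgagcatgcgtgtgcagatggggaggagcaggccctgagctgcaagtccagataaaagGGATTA
Gnb1 (chr4:155491111-155491360, plus strand): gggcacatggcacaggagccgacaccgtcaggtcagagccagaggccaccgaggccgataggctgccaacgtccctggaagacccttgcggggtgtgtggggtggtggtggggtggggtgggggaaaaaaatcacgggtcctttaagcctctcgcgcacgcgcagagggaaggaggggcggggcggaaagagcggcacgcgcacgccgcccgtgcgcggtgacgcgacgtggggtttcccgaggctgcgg
The letters begin 87 bases before the start in Sag and 6 in Gnb5, and the window of Gnb1 does not hold them. Promoters were matched for 6 of the 9 genes (these 3 and Gngt1, Grk1 and Rgs9), and 3 of the 6 hold the letters on either strand. The third is Gngt1, whose start RefSeq places at 3994008 and GENCODE at 3993792, so that 216 bases of its window lie inside the gene as annotated by GENCODE. Over all 32851 promoters of the same length 6.25% hold the letters. In rd10 vehicle against WT the log2 fold changes were -1.42 (Sag), -1.24 (Gnb5) and -2.19 (Gngt1) with the letters. Without them they were -2.17 (Gnb1), -2.10 (Grk1) and -1.62 (Rgs9), and a link was not tested. A match is a description of the letters.

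Every transducin and shutoff gene was lower in rd10 vehicle than in WT retinas, which compares the untreated degenerating retina with the healthy one. By edgeR's quasi-likelihood test with Benjamini-Hochberg adjustment over all genes, 9 of 9 fell, against 30.2% of all genes tested, and for all 9 the groups did not overlap, as was so in this direction for 19.8% of genes. Without TMM 17.2% of all genes were called lower, and all 9 still were. Gnat1 had 1428 to 5084 CPM (median 2779) in rd10 vehicle retinas, against 17596, 16715, 16673 and 18566 CPM in the 4 WT retinas. The highest rd10 vehicle retina lay far below the lowest WT retina. The fold change was -2.50 on the log2 scale (SE 0.25, adjusted p = 1.08e-06), the largest fall of the set. Its partners fell less in size: Gnb1 by 2.17 (SE 0.16) and Gngt1 by 2.19 (SE 0.20). Gngt1 ranged over 262 to 589 CPM (median 368) in rd10 vehicle, against 1615, 1761, 1539 and 2277 CPM in WT, where retina 4 stood above the others.

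Within shutoff the falls were uneven. Sag and Gnb5 fell least, while Rgs9bp fell about as much as transducin. Sag had 1519 to 3716 CPM (median 2212) in rd10 vehicle retinas, against 6969, 6985, 6467 and 7135 CPM in WT, with a log2 fold change of -1.42 (SE 0.20, adjusted p = 2.07e-05). Its mean was 37.3% of the WT mean, while that of Gnat1 was 17.7%. Gnb5 had 306 to 441 CPM (median 339) in rd10 vehicle, against 879, 922, 809 and 869 CPM in WT, which kept 42.2% of the WT mean (log2 fold change -1.24, SE 0.10, adjusted p = 1.22e-07). Transcripts of the 2 other proteins of its complex moved apart. Rgs9bp had 170.3 to 363 CPM (median 259) in rd10 vehicle, against 1277, 1464, 1049.9 and 1324 CPM in WT, a fall of 2.30 on the log2 scale (SE 0.17), and Rgs9 fell by 1.62 (SE 0.13), so that they kept 20.3% and 32.4% of their WT means. Grk1 fell by 2.10 (SE 0.18) and Rcvrn, whose protein binds the Grk1 kinase, by 1.97 (SE 0.20). None of these calls was lost with any retina left out or by DESeq2. Markers of other cells moved beside them. In rd10 vehicle against WT 5 of 5 Müller glia markers (median log2 fold change 0.77), 5 of 5 microglia markers (2.19) and 6 of 6 bipolar cell markers (0.82) were higher. Of all genes tested, 31.6% were called higher (45.0% without TMM). Summed levels were 3390.4 to 4478 CPM in rd10 vehicle, against 2799 to 2926.5 CPM in WT, for Müller glia, and 152 to 179 CPM in rd10 vehicle, against 26.0 to 34.2 CPM in WT, for microglia. Their part in the falls was not tested.

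**Figure D1:**
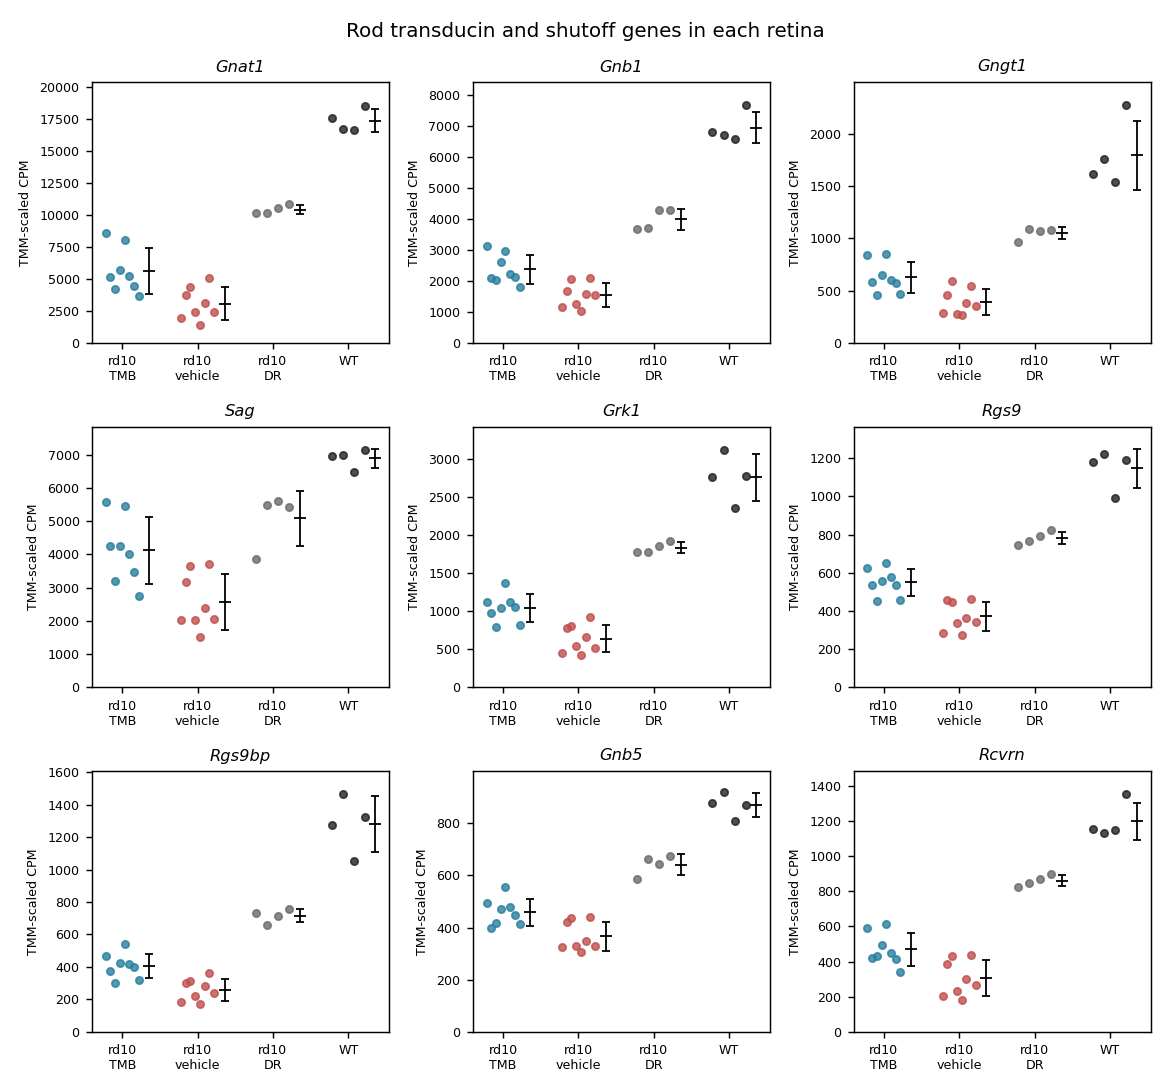
Level of each gene in every retina, in TMM-scaled CPM from 0, for rd10 TMB (n = 8), rd10 vehicle (n = 8), rd10 DR (n = 4) and WT (n = 4); each point is a retina and the bar beside a group its mean ± SD. The mean of each gene is lowest in rd10 vehicle and highest in WT, the rd10 TMB and rd10 vehicle points overlap in all 9 panels, and 1 rd10 DR retina lies apart for Sag at 3848 CPM.

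The dark-reared rd10 retinas had less of each transcript than WT, by much smaller amounts, in a comparison where genotype, age and light all differ. All 9 genes were called lower in rd10 DR, against 10.2% of all genes tested (5.84% without TMM), and all 9 separated the groups without overlap, as 11.6% of genes did in this direction. Gnat1 had 10124, 10129.5, 10541 and 10846 CPM in the 4 rd10 DR retinas, against 17596, 16715, 16673 and 18566 CPM in WT. These retinas lay within 1.07-fold of each other, and the log2 fold change was -0.72 (SE 0.05, adjusted p = 3.83e-06). Gnb1 (-0.78), Gngt1 (-0.75) and Rgs9bp (-0.82, the largest) stood beside it, while Grk1 (-0.57), Rgs9 (-0.53), Rcvrn (-0.46), Gnb5 (-0.42) and Sag (-0.42) fell less. Sag had 3848, 5489.8, 5591 and 5429 CPM in rd10 DR, against 6969, 6985, 6467 and 7135 CPM in WT. Its first rd10 DR retina stood apart, and without that retina the fold change was -0.30 (adjusted p = 0.00155). When 1 spread was estimated over all 4 groups, 6 of the 9 remained past the threshold, and Gnat1 (adjusted p = 0.0603), Rcvrn (0.109) and Sag (0.176) did not. In the same comparison 5 of 5 microglia markers (median log2 fold change 1.87) and 5 of 5 erythrocyte markers (1.62) were higher and 3 of 6 pigment epithelium markers lower. Of all genes tested, 14.5% were called higher (21.8% without TMM). Microglia markers summed to 97.0 to 131 CPM in rd10 DR, against 26.0 to 34.2 CPM in WT, erythrocyte markers to 45.8 to 73.6 CPM in rd10 DR, against 8.66 to 29.4 CPM in WT, and pigment epithelium markers to 26.5 to 73.8 CPM in rd10 DR, against 63.8 to 131 CPM in WT. Their part in the result was not tested.

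The rd10 TMB retinas lay between rd10 vehicle and rd10 DR for each of the 9 genes by group mean. Against WT all 9 were lower, compared with 24.9% of all genes (13.1% without TMM), with log2 fold changes of -1.65 (Rgs9bp, SE 0.13) to -0.74 (Sag, SE 0.15, adjusted p = 0.000862), and no rd10 TMB retina reached any WT retina for any of them. Across all genes, 14.6% were lower without overlap in this comparison.

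Against rd10 vehicle, where the diet is the labelled difference, all 9 genes were higher in rd10 TMB, with adjusted p from 0.0231 (Rgs9) to 0.0436 (Rcvrn), where 3.37% of all genes tested were called higher. Gnat1 had 3642 to 8617 CPM (median 5206) in rd10 TMB retinas, against 1428 to 5084 CPM (median 2779) in rd10 vehicle. The groups overlapped, with only rd10 TMB retinas 1, 2, 4, 5 and 6 above every rd10 vehicle retina. The fold change was 0.87 on the log2 scale (SE 0.23, adjusted p = 0.036), or 1.83-fold, the largest of the set, and the mean stood at 32.4% of WT, against 17.7% in rd10 vehicle. Sag had 2756 to 5589 CPM (median 4136) in rd10 TMB, against 1519 to 3716 CPM (median 2212) in rd10 vehicle, 1.60-fold higher (log2 0.68, SE 0.18, adjusted p = 0.036), and Grk1 798 to 1371 CPM (median 1049), against 421 to 929 CPM (median 606), 1.62-fold higher (log2 0.69, SE 0.15, adjusted p = 0.0245). The other transducin subunits and shutoff genes were 1.48-fold (Rgs9) to 1.59-fold (Gngt1) higher, except Gnb5. That gene had 397 to 556 CPM (median 459) in rd10 TMB, against 306 to 441 CPM (median 339) in rd10 vehicle, and its difference of 1.25-fold (log2 0.32, SE 0.08, adjusted p = 0.0363) was the smallest. The groups separated completely for none of the 9, while 0.102% of all genes separated completely in this direction.

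These 9 calls lay close to the threshold and hung on single retinas. Without rd10 vehicle retina 1 or retina 5, the pair with the lowest Gnat1, 0 of 9 passed. Without rd10 TMB retina 5, 1 passed, without rd10 TMB retina 4, 2, without rd10 vehicle retina 4 or 8, 3, without rd10 vehicle retina 6 or rd10 TMB retina 1 or 6, 4, without rd10 TMB retina 2, 5, and without rd10 TMB retina 7, 7. The remaining 5 omissions kept all 9. Across these 16 fits all 9 genes stayed higher in rd10 TMB. The log2 fold change ran from 0.76 to 1.01 for Gnat1, 0.6 to 0.77 for Sag and 0.27 to 0.36 for Gnb5. The highest adjusted p of any of the 9 was 0.0934. By the same edgeR test the highest unadjusted p was 0.00544 (Rcvrn). Over all genes the 1152 calls became 2 without rd10 vehicle retina 1 and 3 without rd10 vehicle retina 5. With the title prefix as a term 5 of 9 passed. Among RD9 retinas alone (3 against 3) the log2 fold changes were 0.37 to 1.04 and among RD10 retinas alone (5 against 4) 0.26 to 0.69, with 0 of 9 past the threshold in either. Leaving out rd10 TMB retinas 1 and 5 together, the 2 highest for Gnat1 and both titled RD9, gave 0.24 to 0.62 (adjusted p 0.0663 to 0.161) and 0 of 9 calls, a choice made after the data were seen. The summed level of 6 pigment epithelium markers was 148 to 824 CPM in rd10 TMB and 102.5 to 259.5 CPM in rd10 vehicle retinas. It was high in rd10 TMB retinas 2, 3 and 4, at 543.5 to 824 CPM, and 197 and 153 CPM in retinas 1 and 5, where the transducin genes were highest. Erythrocyte markers summed to 9.12 to 100.2 CPM in rd10 TMB and 11.7 to 30.7 CPM in rd10 vehicle retinas. The part of pigment epithelium or erythrocytes in the difference between diets was not tested.

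**Figure D2:**
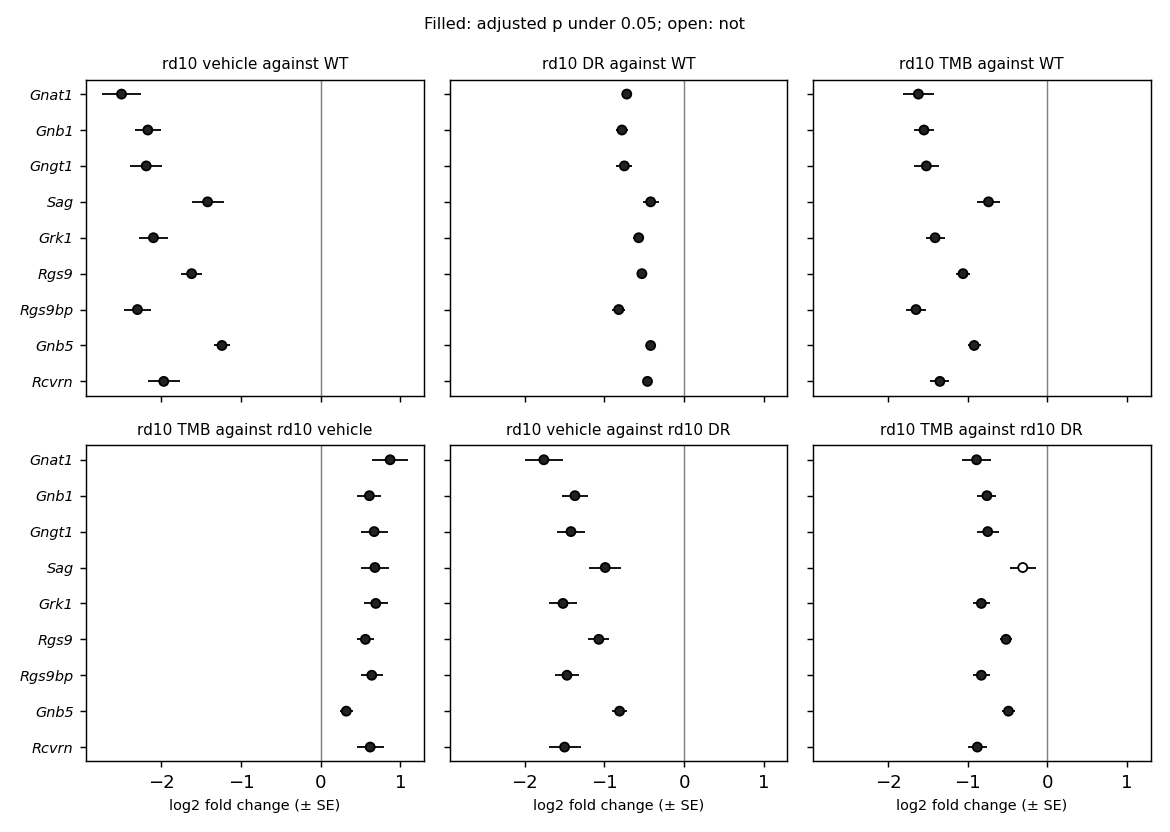
Log2 fold change (± SE) of each gene in 6 comparisons of groups, the first-named over the second; filled points have an adjusted p under 0.05 and open points do not. Sag and Gnb5 lie nearest to 0 in the comparisons with WT, and Sag is the only open point, at -0.31 for rd10 TMB against rd10 DR.

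Set against the dark-reared retinas, the light-exposed rd10 groups were lower again. Both differed from rd10 DR in light and age, and rd10 TMB differed also in the drug diet. In rd10 vehicle 9 of 9 genes were lower than in rd10 DR, against 20.6% of all genes, with log2 fold changes of -1.76 (Gnat1, SE 0.24) to -0.81 (Gnb5, SE 0.09), and no retinas overlapped, as was so in this direction for 12.7% of genes. Among RD10 retinas alone the 9 calls held, at -1.86 to -0.79. In rd10 TMB 8 of 9 were lower than in rd10 DR, against 11.4% of all genes. Their log2 fold changes ran from -0.89 (Gnat1, SE 0.18, adjusted p = 0.00223) to -0.49 (Gnb5, SE 0.08), and their groups did not overlap, as was so in this direction for 6.41% of genes. Sag was the exception. It had 2756 to 5589 CPM (median 4136) in rd10 TMB, against 3848, 5489.8, 5591 and 5429 CPM in rd10 DR, and -0.31 (SE 0.16, adjusted p = 0.176) did not pass. Among RD10 retinas alone Sag also passed, at -0.53 (adjusted p = 0.00647), as it did without rd10 TMB retinas 1 and 5, at -0.48 (adjusted p = 0.0107).

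The order of mean levels was thus rd10 vehicle, rd10 TMB, rd10 DR and WT, from low to high, for all 9 genes. Neighbours in this order overlapped between rd10 vehicle and rd10 TMB, for all 9 genes, and between rd10 TMB and rd10 DR, for Sag.

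Ratios of counts between pairs of these genes within a library do not depend on the scaling, and 8 ratios were compared over the 6 pairs of groups by exact two-sided permutation tests over retinas, adjusted over the 48 comparisons. A total of 20 passed an adjusted p of 0.05. With 4 retinas against 4 the smallest p is 0.0286 and none of the rd10 DR against WT ratios passed. The part of changing cell numbers in these whole-retina ratios was not tested. The arrestin transcript gained on that of the transducin alpha subunit. The Sag to Gnat1 ratio was 0.731 to 1.06 (median 0.841) in rd10 vehicle retinas, against 0.396, 0.418, 0.388 and 0.384 in WT. It did not overlap between the groups and was 2.18-fold higher (exact p = 0.00202, adjusted 0.00808). In rd10 TMB it was 0.649 to 0.822 (median 0.760), 1.87-fold above WT (adjusted exact p = 0.00808), and 1.16-fold below rd10 vehicle (exact p = 0.0124, adjusted 0.0314). In rd10 DR it was 0.380, 0.542, 0.530 and 0.501, so that the 4 retinas lay on both sides of the WT values. The rd10 TMB difference from rd10 vehicle had the same sign within RD9 (log2 -0.13, adjusted exact p = 0.4) and within RD10 retinas (-0.30, adjusted exact p = 0.0635). Neither passed, and the 3 against 3 of RD9 could not have, since their smallest exact p is 0.1. Over all retinas it lost its call without rd10 TMB retina 1 or 5 or rd10 vehicle retina 1 or 5 (adjusted exact p 0.0507 to 0.0571).

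Transcripts of the GTPase-activating complex shifted in their proportions as well. Rgs9 to Gnat1 was 0.0912 to 0.191 (median 0.131) in rd10 vehicle, against 0.0672, 0.0731, 0.0596 and 0.0641 in WT, 1.95-fold higher without overlap (exact p = 0.00202, adjusted 0.00808). Within the complex, the transcript of the anchor fell behind that of its enzyme. Rgs9bp to Rgs9 was 0.624 to 0.782 (median 0.673) in rd10 vehicle, against 1.08, 1.20, 1.06 and 1.11 in WT, 1.61-fold lower, and 0.675 to 0.828 (median 0.731) in rd10 TMB, 1.52-fold lower than WT (exact p = 0.00202 and adjusted 0.00808 for both). In rd10 DR it was 0.980, 0.862, 0.904 and 0.922, all below the WT values (exact p = 0.0286, adjusted 0.0531). Gnb5 to Rgs9 moved the other way. It was 0.915 to 1.16 (median 0.964) in rd10 vehicle, against 0.743, 0.754, 0.814 and 0.730 in WT, 1.31-fold higher (exact p = 0.00202, adjusted 0.00808). In rd10 TMB it was 0.740 to 0.926 (median 0.838), 1.19-fold below rd10 vehicle (exact p = 0.000311, adjusted 0.00808), and within 1.10-fold of WT (exact p = 0.0404, adjusted 0.0693). That difference from rd10 vehicle was -0.28 on the log2 scale within RD9 retinas, too few to pass, and -0.26 within RD10 retinas (adjusted exact p = 0.0635).

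In rd10 vehicle against WT, Gnb1, Gngt1 and Grk1 shifted less against Gnat1 than Sag and Rgs9 did. Gnb1 to Gnat1 was 1.32-fold higher in rd10 vehicle than in WT (exact p = 0.0121, adjusted 0.0314) and Grk1 to Gnat1 1.38-fold higher (exact p = 0.00606, adjusted 0.0194). The first lost its call without any 1 of the 4 WT retinas or without rd10 vehicle retina 1 or 6, the second without WT retina 3 or 4. The Gngt1 to Gnat1 ratio was 1.30-fold higher (exact p = 0.0283, adjusted 0.0531), and passed without WT retina 4 or rd10 vehicle retina 4 or 7. Rcvrn to Grk1, the calcium sensor to its kinase, passed in no comparison. Its mean was 0.454 ± 0.0552 in rd10 TMB (SD, n = 8), 0.472 ± 0.0393 in rd10 vehicle (n = 8), 0.469 ± 0.00494 in rd10 DR (n = 4) and 0.439 ± 0.0605 in WT retinas (n = 4).

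**Figure D3:**
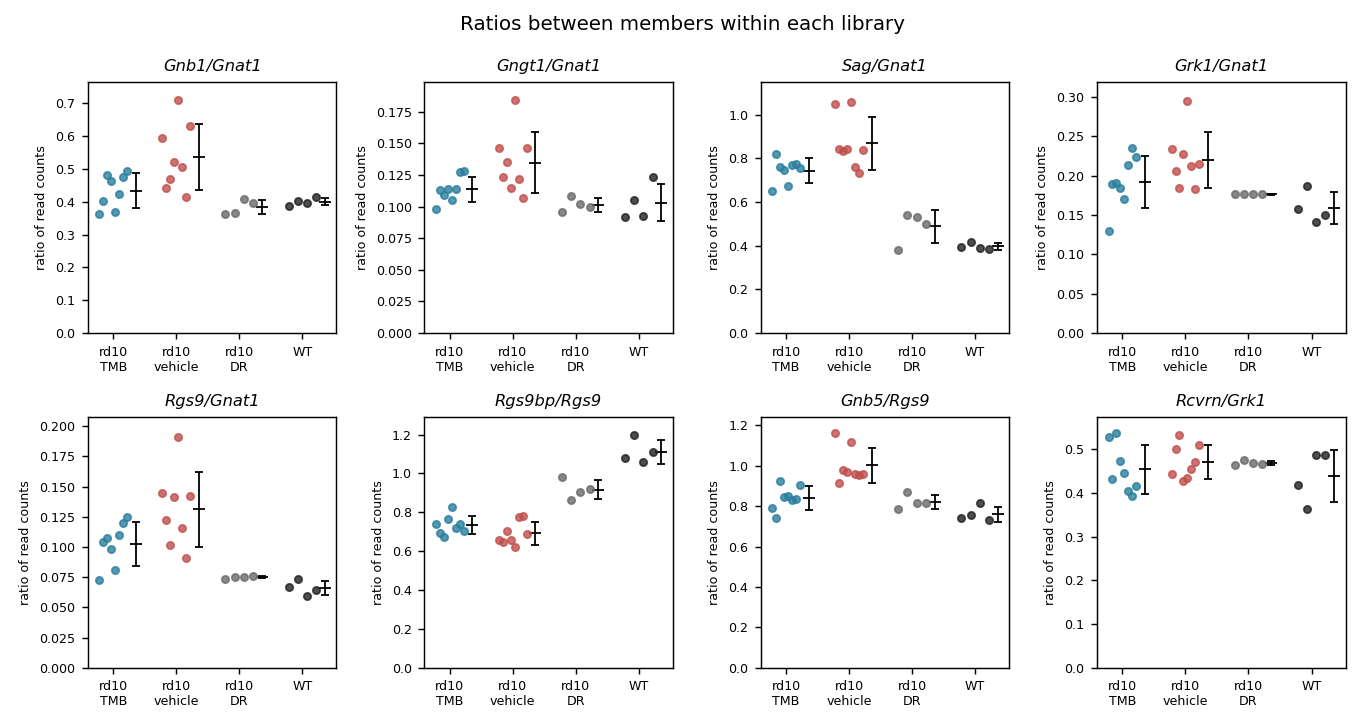
Ratio of read counts of 2 genes within each library, from 0, for rd10 TMB (n = 8), rd10 vehicle (n = 8), rd10 DR (n = 4) and WT (n = 4); points are retinas and the bars beside them mean ± SD. Sag to Gnat1 and Rgs9 to Gnat1 stand above WT in every rd10 vehicle retina, Rgs9bp to Rgs9 stands below WT in every rd10 retina, and Rcvrn to Grk1 overlaps in all groups.

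The 9 genes moved largely together from retina to retina, by different amounts. Within rd10 vehicle, retina 5 was lowest for 9 of the 9 genes and retina 7 highest for 8. Within rd10 TMB, retina 5 was highest for 6 and retina 1 for the other 3. The lowest there was retina 3 for 4 genes, retina 8 for 4 and retina 2 for 1. Within WT, retina 3 was lowest for 8, while retina 4 was highest for 5 and retina 2 for 4. The range within rd10 vehicle was widest for Gnat1, whose highest retina was 3.56-fold above the lowest, and narrowest for Gnb5 (1.44-fold) and Rgs9 (1.70-fold). In rd10 TMB the same ranges were 2.37-fold for Gnat1, 1.40-fold for Gnb5 and 1.45-fold for Rgs9. The rd10 DR and WT retinas were far tighter for Gnat1, at 1.07-fold and 1.11-fold. The SD of log2 Gnat1 was 0.44 in rd10 TMB, 0.62 in rd10 vehicle, 0.05 in rd10 DR and 0.07 in WT.

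Genes of the same pathway from lists chosen beside these 9 show where the pattern extends. Of 10 other rod phototransduction genes (phosphodiesterase subunits, channel subunits, the Slc24a1 exchanger, guanylyl cyclases and their activators), 10 fell in rd10 vehicle against WT, with a median log2 fold change of -2.32 beside -2.10 for the 9 and 0.015 for all genes. Gucy2f, a rod guanylyl cyclase, fell most (-2.65, SE 0.21). Pde6a, Pde6b, Pde6g and Cnga1 are on this list and also among the rod marker genes above, so these lists are not separate evidence. In rd10 DR against WT 10 of 10 fell (median -0.78, against -0.57 for the 9), and in rd10 TMB 9 of 10 were higher than in rd10 vehicle (median 0.76, against 0.64 for the 9 and 0.00 for all genes), led by Pde6b (0.88, SE 0.22, adjusted p = 0.0302). Proteins that chaperone or carry transducin, the phosphodiesterase or the kinase followed in part. All 5 fell in rd10 vehicle against WT (median -1.50), with Pdc, phosducin, which binds transducin beta-gamma, at -2.21 (SE 0.24) and its relative Pdcl at -0.49 (SE 0.05). Of these 5, 3 were higher in rd10 TMB than in rd10 vehicle, led by Pdc (0.77, SE 0.21, adjusted p = 0.0363), while Pde6d (0.17, adjusted p = 0.144) and Pdcl (0.07, adjusted p = 0.388) did not pass. These calls, too, hung on single retinas. Of the 10 rod genes 0 passed without rd10 vehicle retina 1 or 5 or rd10 TMB retina 5, 1 without rd10 vehicle retina 4 or 8 or rd10 TMB retina 4 or 6, and 3 without rd10 vehicle retina 6 or rd10 TMB retina 1. Of the 5 binding proteins 0 passed without any 1 of rd10 vehicle retinas 1, 4, 5, 6 and 8 or rd10 TMB retinas 4, 5 and 6, 1 without rd10 TMB retina 1, and 2 without rd10 TMB retina 2. Among RD9 or RD10 retinas alone 0 of either list passed.

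The cone counterparts behaved otherwise, and the part of cones in the levels of the 9 genes was not tested. Of 9 tested (Gnat2, also on the list, was not analysed here), 6 rose and 1 fell in rd10 vehicle against WT, where 31.6% of all genes tested rose (45.0% without TMM), with a median of 0.40. Without TMM 8 rose and 0 fell. Gnb3, the beta subunit of cone transducin, rose most (0.92, SE 0.11, adjusted p = 3.76e-06), Arr3, the cone arrestin, rose by 0.63 (SE 0.09), Gngt2, the cone gamma subunit, was at 0.12 (SE 0.08, adjusted p = 0.207), and Opn1sw, the short-wave cone pigment, fell by 0.45 (SE 0.14). Gnb3 was also higher in rd10 DR than in WT (1.02, SE 0.07), where 4 of 9 rose (7 without TMM) and 14.5% of all genes did. In rd10 TMB against rd10 vehicle 1 of 9 was higher, Opn1sw (0.55, SE 0.12, adjusted p = 0.0258), and Gnb3 was at 0.05 (SE 0.09) and Arr3 at -0.01 (SE 0.07). The Opn1sw call was lost without rd10 vehicle retina 1 or 5 or rd10 TMB retina 4 or 5. Pde6c, the cone phosphodiesterase (-0.22, SE 0.07, adjusted p = 0.0691), was called lower by DESeq2 and without TMM. The other partners of Gnb5 went against Rgs9 and Rgs9bp. All 6 (Rgs6, Rgs7, Rgs11, Rgs7bp, Gpr158 and Gpr179), which serve Gnb5 complexes outside rods, rose in rd10 vehicle against WT (median 0.59, highest Gpr179 at 1.10, SE 0.09). In rd10 TMB against rd10 vehicle 0 of the 6 passed by edgeR, all between -0.22 and -0.07, with 5 at an unadjusted p under 0.05, while 3 were lower by DESeq2 and 3 without TMM. Bipolar cell markers, which mark a home of those complexes, summed to 1660.4 to 1916 CPM in rd10 TMB, 1830.5 to 2363 CPM in rd10 vehicle and 1146 to 1443 CPM in WT. The part of these cells in the smaller fall of Gnb5 was not tested. Of 6 other G protein subunits (Gnb2, Gnb4, Gnao1, Gnai1, Gnai2 and Gnai3), 6 rose in rd10 vehicle against WT (median 0.53, Gnb2 most at 0.74), and in rd10 TMB against rd10 vehicle 1 fell, where 2.32% of all genes did (Gnao1, -0.14, SE 0.04, adjusted p = 0.0332). By DESeq2 3 of the 6 fell, and 3 without TMM, where 5.14% of all genes did, while 0 fell with any 1 of 9 retinas left out (rd10 vehicle 1, 4, 5 or 8, or rd10 TMB 2, 4, 5, 6 or 7).

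**Figure D4:**
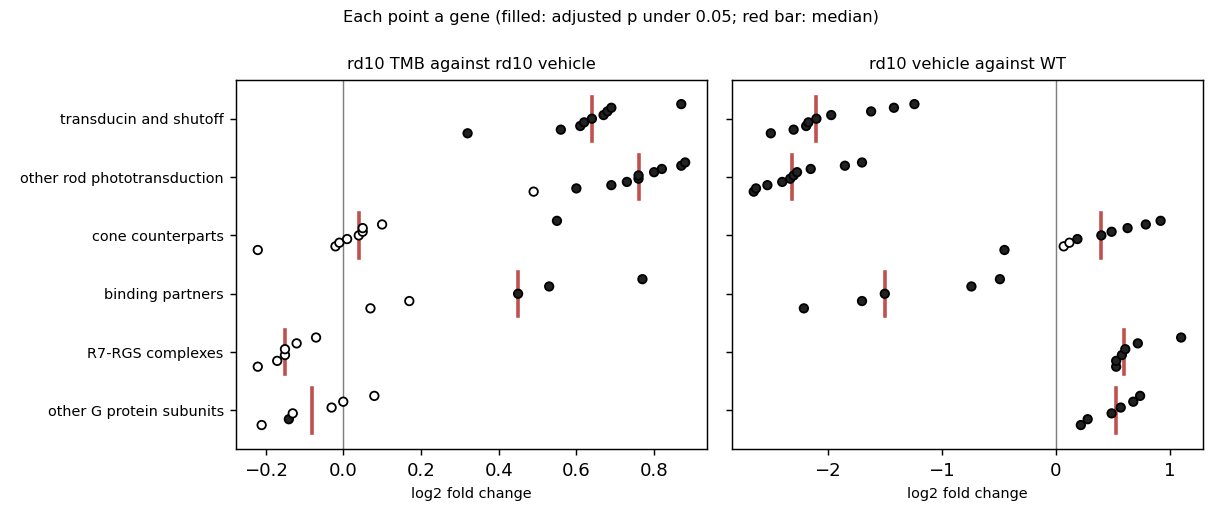
Log2 fold change of each gene by list, rd10 TMB against rd10 vehicle (left) and rd10 vehicle against WT (right); each point is a gene, filled with an adjusted p under 0.05, and the red bar is the median of the list. The medians of the transducin and shutoff genes are 0.64 and -2.10, and those of the cone counterparts 0.04 and 0.40.

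The difference between diets was compared between males and females. For the 9 genes the log2 fold change of rd10 TMB over rd10 vehicle in males minus that in females lay between -0.14 (Gnb1, SE 0.30) and 0.17 (Gnb5, SE 0.17, and Grk1, SE 0.31). By edgeR 0 of 9 passed, and 0% of the 21272 genes tested did, with 827 genes at an unadjusted p under 0.05, among which none of the 9 lay (lowest unadjusted p 0.328, Gnb5). DESeq2 called 2 genes, neither among the 9. The standard errors ran from 0.17 (Gnb5) to 0.48 (Gnat1), and a p that misses the threshold does not show that the sexes responded alike.

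The genes most like Gnat1 over the 24 retinas, by the root mean square difference of centred log2 CPM among 16040 genes, were Kcnj14 (0.086), Pde6b (0.099), Slc24a1 (0.109), Prph2 (0.118) and Guca1b (0.120). Those most like Gnb5 were Herc3 and Epb41 (0.076 each), Doc2b (0.081), Pip4k2c (0.082) and Atp8a2 (0.086). No gene is on both lists. These values describe the libraries, which share group differences and depth.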

How the data were processed

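Raw read counts per gene were deposited by the authors, who selected polyadenylated RNA, made libraries that do not mark the strand, used Trimmomatic for trimming, STAR for alignment to GRCm38 and HTSeq for counting. The sources differ on whether reads were single or paired. Deposited fold changes and p-values of the authors' own comparisons were not used, nor were the tables of mitochondrial genes. The copies of the WT columns in the nuclear table were equal to the first set (8 of 8), 0 columns of values were unmatched to a sample, and no retinas of a group were duplicates (chi-square per gene 6.52 to 89.5 over 68 pairs). The labels name separate animals.

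Each pair of groups was fitted over all nuclear genes with edgeR 4.0.16 in R 4.3.3 (quasi-likelihood F test, default expression filter, TMM, Benjamini-Hochberg adjustment, threshold 0.05), which was tested on simulated data. SE is that of the log2 fold change. Ratios are of counts plus 0.5. Genes likest to a member were sought among those with a mean of at least 1 CPM. Gene positions are from GENCODE M21. The 9 genes and the lists beside them were chosen with earlier results of these data known. All 9 are named, and from each list at most 3 genes per comparison: the largest rise, the largest fall and direct relatives of the 9. Others are named where a count or a call turned on them, chosen after their values were seen. Alternatives were DESeq2 1.42.0, other scalings and filters, 1 fit over all groups, sex or title prefix as a term, each prefix alone, a pseudocount of 5 in ratios, and each retina left out.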

Additional observations from a re-analysis of the deposited data

Results flagged for a closer look

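In 68 sets of values (9 levels and 8 ratios in each of 4 groups), 5 held a retina that stood apart from the rest of its group by more than Dixon's 95% critical value, where chance gives about 1 in 20. Sag was 3848 CPM in rd10 DR retina 1, with the other 3 at 5429 to 5591 CPM, and Gngt1 was 969 CPM in the same retina, with the others at 1073 to 1091 CPM. Rgs9 was 993.5 CPM in WT retina 3, with the others at 1182 to 1222 CPM. Rcvrn was 1355 CPM in WT retina 4, with the others at 1134 to 1158 CPM. The Grk1 to Gnat1 ratio was 0.177 in rd10 DR retina 4, with the others at 0.176, a gap of no visible size.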

How the results depend on the processing

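The genes called lower in rd10 vehicle and rd10 TMB against WT and in rd10 vehicle against rd10 DR numbered 9 under every alternative. In rd10 DR against WT they numbered 6 to 9, and in rd10 TMB against rd10 DR 8 to 9. In rd10 TMB against rd10 vehicle 9 passed, but 5 with the title prefix as a term, 0 in RD9 retinas only, 0 in RD10 retinas only, 0 without rd10 TMB retinas 1 and 5 (chosen after seeing the data), and 0 to 9 with single retinas left out. Over all genes, 1152 calls there became 680.0 without the low-count filter, 1879 with DESeq2, 12 in RD10 retinas, 0 in RD9 retinas, 19 without rd10 TMB retinas 1 and 5, and 2 to 1676 with single retinas left out. The 10879 calls of rd10 TMB against WT became 7201 in RD9 retinas only. The cause of these changes, such as the smaller number of retinas in the subsets, was not tested. Between sexes the 0 calls over all genes became 2 with DESeq2 and 0 to 1 with single retinas left out. Sex differences near 0 changed sign with the title prefix as a term (Gnat1 0.31, Gnb1 0.07, Rcvrn 0.16) and with single retinas left out: Gnat1 ran over -0.36 to 0.28, Gnb1 -0.31 to 0.04, Gngt1 -0.21 to 0.24, Sag -0.17 to 0.31, Rgs9bp -0.10 to 0.25 and Rcvrn -0.21 to 0.23. Of the 48 ratio comparisons 20 passed, and 17 to 25 under the alternatives. No paired analysis was possible because the numbers in the labels count animals within a sex and title prefix and recur within a group, so they pair no samples across groups. Depth was ample for all 9 genes, and the number of retinas limits precision.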
